A study of Mus musculus with 4 samples.

Results

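The genes described here are 10 members of the canonical Wnt pathway: the DNA-binding factors Lef1, Tcf7, Tcf7l1 and Tcf7l2, their partner Ctnnb1 (beta-catenin), the feedback genes Axin2 and Nkd1, the R-spondin ligand Rspo1, and the receptors Lgr4 and Lgr5. They were chosen by name, as every non-control probe whose gene name is on this list, which gave 16 of the 55681 probes on the array and 10 of its 36282 gene and transcript names. The study used 4 Agilent arrays with 1 colour each. Of these, 2 carried RNA of stem cells and 2 RNA of non-stem cell epithelia, each freshly isolated by flow cytometry from the submandibular salivary gland of C57BL/6 mice aged 8 to 10 weeks. No treatment, transgene or mutation is given for either group, and the reference group is another sorted epithelial fraction, not whole gland. The markers of the sort, the sex of the mice and any pooling of animals are not stated in the sources used here. No source states whether the replicates are separate animals or separate sorts; p-values cover just the spread among these 4 arrays, which may be technical.

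In canonical Wnt signalling, a Wnt ligand binding Frizzled and Lrp receptors stops the destruction complex from degrading beta-catenin, which then enters the nucleus and joins the TCF and LEF factors on DNA. R-spondins bind Lgr4, Lgr5 and Lgr6 and keep Wnt receptors on the cell surface by drawing away the ubiquitin ligases Rnf43 and Znrf3. Axin2 and Nkd1 are transcribed in response to the pathway and dampen it. In salivary glands the pathway is studied for its roles in duct development and in regeneration after injury, and Lgr5 marks stem cells of several other epithelia.

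Probes that lie in coding sequence show what was read out. The Tcf7l2 probe lies in the part that encodes the HMG box, the DNA-binding domain of this family, at chr19:55994029-55994088 (mm9, plus strand). The Axin2 probe at chr11:108803927-108803986 (mm9, plus strand) is shown because this readout gene was not measurable, with a coding probe or otherwise. For Lef1, the probe that crosses a splice junction starts with the last coding bases of the transcript, with the stop codon in capitals.
Tcf7l2 probe: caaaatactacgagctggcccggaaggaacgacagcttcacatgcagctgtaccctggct
Axin2 probe: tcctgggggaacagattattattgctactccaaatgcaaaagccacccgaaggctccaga
Lef1 probe, coding part: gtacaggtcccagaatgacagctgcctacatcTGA

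Of the 10 genes, 6 were higher in stem cells (Lef1, Tcf7, Tcf7l1, Tcf7l2, Nkd1 and Rspo1), 1 was lower (Lgr5), 2 did not pass the test (Ctnnb1 and Lgr4), and Axin2 was not measurable. The test was limma's moderated test on log2 signals where p was adjusted by Benjamini-Hochberg over 17362 genes, at a threshold of 0.05. Over all tested genes 31.1% passed, 14.3% as higher and 16.7% as lower, against 7 of the 9 tested genes here. Of those 7, Lef1, Rspo1 and Lgr5 entered the test only through the group where they are high. With a filter on all 4 arrays they went untested, and 4 of the 10 genes were higher and 0 lower. Under that filter 2918 of 14395 tested genes were higher and 2773 lower. The median log2 difference, stem minus non-stem, was 0.78 over the 9 tested genes and -0.0053 over all tested genes. It was 0.76 over the 30668 probes above background on no array, and the part of that offset in the 0.78 was not tested. The arrays did not overlap between groups for 8 of the 9, against 71.1% of all tested genes. By probe, 9 of the 11 tested passed, 8 as higher and 1 as lower, against 28.9% of the 22642 probes tested (13.1% higher and 15.8% lower), and the other 5 of the 16 were well above background on no array. Without non-stem replicate 1, and likewise without non-stem replicate 2, 2 of the 10 genes passed as higher and 0 as lower. Lef1, Rspo1 and Lgr5 were each measured in 1 group alone, so the sizes of their differences have only a bound, described with Lef1, and are not ranked. Direction depended on scaling for the others: with no scaling between arrays Tcf7l1, Tcf7l2 and Nkd1 lay below 0, and on a scale set by the spike-in controls Tcf7 did too.

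The log2 values below are the log2 signal minus the array's own 75th percentile, so 0 is that percentile. That percentile stood at signals of 34.0 and 48.9 for stem cells against 84.2 and 71.1 for the non-stem group, and 35.7% to 42.3% of spots were well above background. Replicates correlated at 0.986 and 0.992, and arrays of different groups at 0.923 to 0.935. Of all calls 46.2% were higher in stem cells, a share that was 59.3% with the percentile taken over detected probes, 29.2% with normexp background correction, 4.63% with no scaling and 0.835% on the spike-in scale. Those settings moved the median difference of all genes by 0.13, -0.26, -0.92 and -2.20 on the log2 scale. All 4 arrays lay on 1 slide. Of 10 tested basal duct and myoepithelial markers, 5 were higher in stem cells, among them the keratins Krt5 (3.15 ± 0.19, SE) and Krt14 (3.17 ± 0.16). The 5 that did not pass were Trp63 (0.56 ± 0.17), Acta2 (-0.11 ± 0.16), Myh11 (-0.21 ± 0.18), Cnn1 (-0.36 ± 0.17) and Tagln (0.047 ± 0.15). Of the acinar markers 8 of 12 were lower, although all 12 were above background on every array. In RNA of sorted populations, fewer cells of a type and less RNA per cell cannot be told apart.

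**Figure D1:**
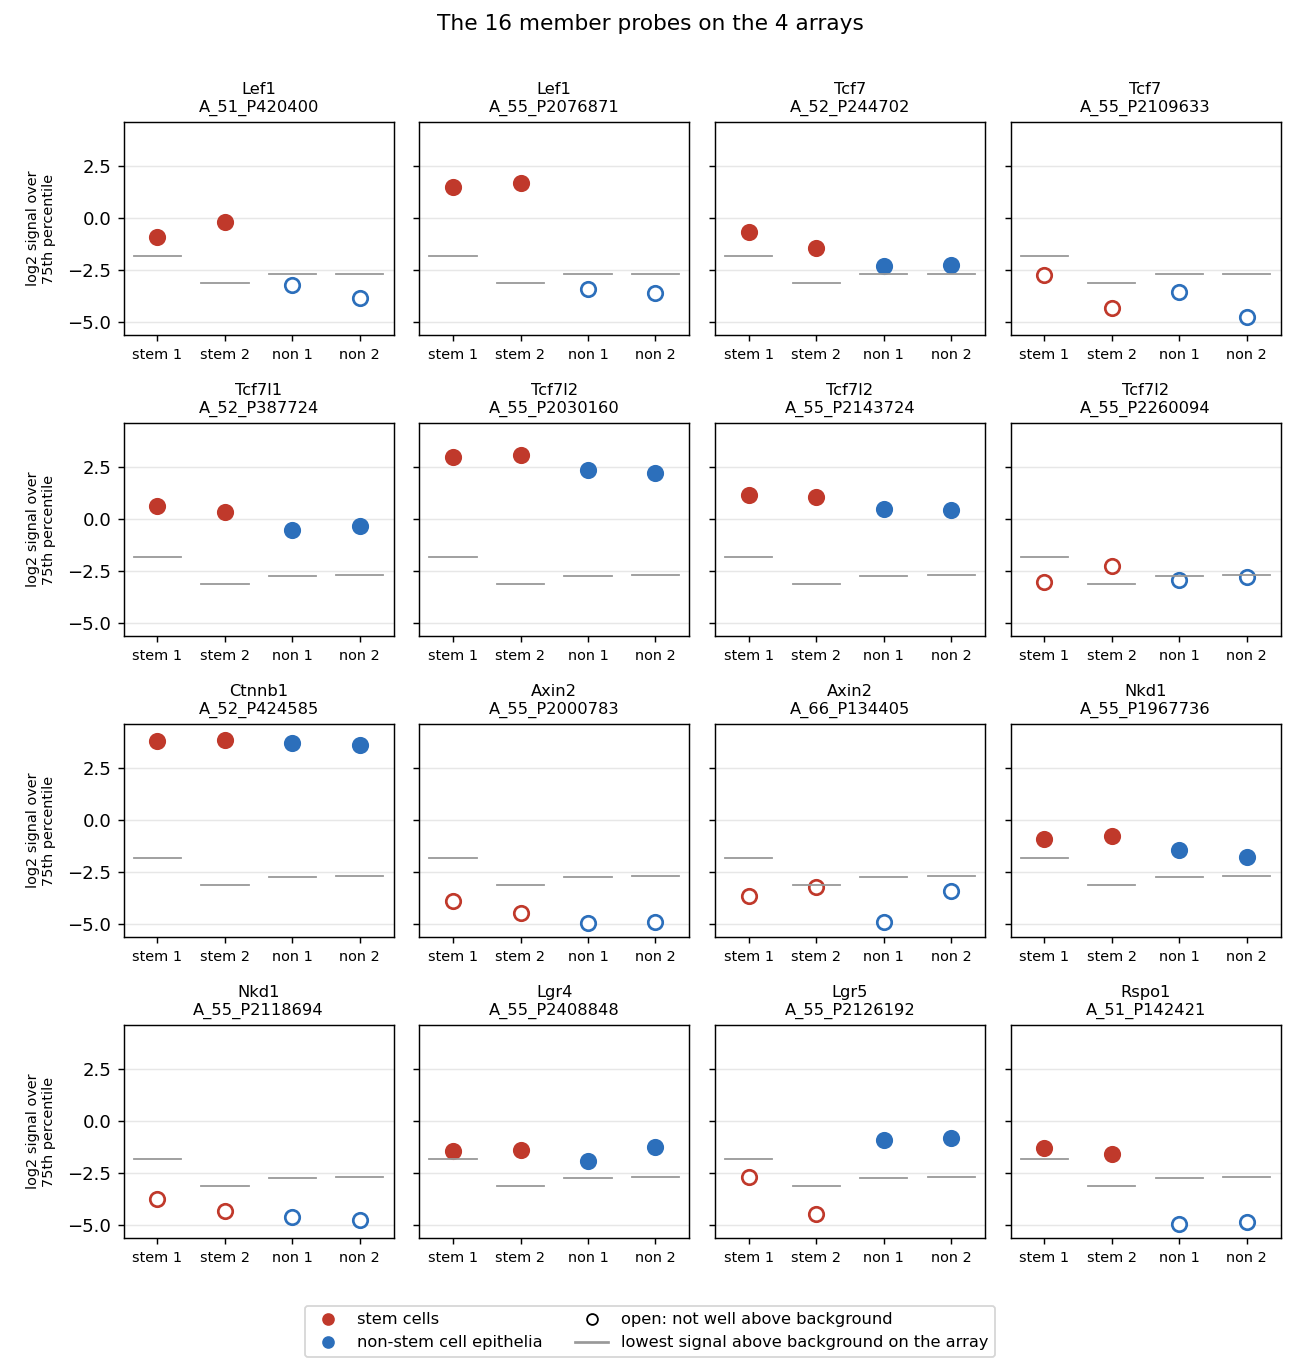
Log2 signal relative to the array's 75th percentile (vertical axis) of each of the 16 probes on the 4 arrays, with filled points well above background and open points not; grey bars mark the lowest signal well above background on each array. Lef1 and Rspo1 are filled in stem cells and open in non-stem cell epithelia, Lgr5 is the reverse, and the Axin2 probes are open throughout.

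Lef1, the factor that mediates Wnt-driven transcription in many developing epithelial buds and in lymphocytes, was at background in non-stem cell epithelia and clearly measured in stem cells. Its brightest probe (chr3:130926200-130926259, mm9, plus strand) gave signals of 94.8 and 155 in stem cells against 7.94 and 5.92 in non-stem cell epithelia, where it was not well above background. As log2 values these were 1.48 and 1.67 against -3.41 and -3.59. Both stem arrays were high, both non-stem arrays lay at background, and the groups were far apart. The log2 difference was 5.07 ± 0.17 (SE, n = 2 against 2, limma adjusted p = 0.000205). Since the lower group has only a bound, the stem cell level of Lef1 was at least 19.1-fold that of the other group. That bound sets the stem mean against, per array, its own signal or, where higher, a floor, and the p-value does not test it. The floor is the dimmest signal of any probe well above background. It is not a detection limit: on stem replicate 2 it was 5.68, while Sfrp1 at 9.60 was not well above background. Every fold given as at least holds under this floor only. The Lef1 bound also moved with the scaling. It was 10.1 with no scaling, 4.15 on the spike-in scale and 3.28 with normexp, so it varies with the scale while its direction does not.

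The junction-crossing Lef1 probe, whose coding end is printed above, spans 18162 bases of the genome (chr3:130907851-130926012, mm9). Its signals were 18.2 and 42.5 in stem cells against 9.11 and 4.98 in non-stem cell epithelia, or -0.90 and -0.20 against -3.21 and -3.84 on the log2 scale. It too was above background in stem cells alone, with the stem arrays further apart from each other than on the first probe. The log2 difference was 2.97 ± 0.33 (SE, n = 2 against 2, limma adjusted p over all probes = 0.00391), which is a rise of at least 4.38-fold. The probes thus gave the same direction and different sizes.

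Lymphocytes also express Lef1 and Tcf7, so their markers are given beside these genes. Of 16 lymphocyte markers on the array, 12 were well above background on no array, among them Ptprc, the pan-leukocyte antigen, and the T cell receptor subunit Cd3g. The summed level of the 16 was 9.11 and 7.58 in stem cells against 7.44 and 8.82 in non-stem cell epithelia. The unit is each array's 75th percentile, and the groups overlapped. Cd4 was the brightest of the 16 by mean log2 value (1.99 for stem arrays, 2.24 for non-stem arrays). Cd3e was next (1.30 against 1.16), so Cd4 and Cd3e weigh most in the sum and its overlap mainly reflects them. Cd4 did not pass the test (-0.24 ± 0.19, SE, limma adjusted p = 0.369). Cd3e, another T cell receptor subunit, did not pass the test (0.14 ± 0.19, SE, limma adjusted p = 0.603). Lck, a kinase of T cells, was higher in stem cells by 1.08 ± 0.26 (SE, limma adjusted p = 0.0302) but lay at -1.13 on the spike-in scale. Lck did not pass with quantile normalization (adjusted p = 0.0685), with no scaling (adjusted p = 0.747) or without non-stem replicate 1 (adjusted p = 0.162) or 2 (adjusted p = 0.105). With no filter it did not pass either (limma adjusted p = 0.12). Lck passed with normexp (limma adjusted p = 0.0262) and with the percentile over detected probes (limma adjusted p = 0.0288). It also passed with a filter on all 4 arrays (limma adjusted p = 0.00495). The part of lymphocytes in the Lef1 and Tcf7 signals was not tested.

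Among 4 RefSeq start sites of Lef1, the one 45997 bases after the first has the letters TCAAAG in its upstream window. TCAAAG is the reverse complement of CTTTGA, the core that TCF and LEF factors recognise, and the motif CTTTGA was searched on both strands of the 250 bases before each start, in RefSeq's GRCm38.p6 table. The window is shown because both Lef1 probes were higher in stem cells and this was the single window of the 15 matched, from 9 of the 10 genes, that holds the motif. Over all 32851 windows 13.8% hold it. It lies at chr3:131156044-131156293 (GRCm38.p6, plus strand), with the matches in capitals at 180 and 120 bases before the start.
Lef1 upstream window: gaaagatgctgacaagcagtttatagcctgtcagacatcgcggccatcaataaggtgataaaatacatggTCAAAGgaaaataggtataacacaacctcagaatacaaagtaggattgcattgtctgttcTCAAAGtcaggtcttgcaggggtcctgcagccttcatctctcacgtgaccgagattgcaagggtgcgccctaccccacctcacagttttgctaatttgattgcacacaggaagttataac
The match is a description of these letters and says nothing of binding, and the array does not tell which start was used.

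Tcf7, which encodes the factor TCF1, was measured on all 4 arrays with the probe at chr11:52066114-52066173 (mm9, minus strand). Its signals were 21.5 and 18.1 in stem cells against 17.4 and 14.9 in non-stem cell epithelia, and relative to the 75th percentile its log2 values were -0.66 and -1.43 against -2.28 and -2.26. The stem arrays lay above the non-stem arrays and differed more from each other. Tcf7 was higher in stem cells by 1.22 ± 0.27 (SE, n = 2 against 2, limma adjusted p = 0.0249), or 2.33-fold, a difference that was 0.29 and not past the threshold (adjusted p = 0.529) with no scaling, and -0.99 on the spike-in scale. A further Tcf7 probe (chr11:52066738-52066797) was well above background on no array.

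Tcf7l1, which encodes TCF3, a factor that mostly represses Wnt targets in stem cells of skin and embryo, gave signals of 53.6 and 61.2 in stem cells against 59.4 and 56.6 in non-stem cell epithelia (chr6:72576377-72576436, mm9, minus strand). These signals overlap as scanned. After the percentile shift the log2 values were 0.65 and 0.32 against -0.50 and -0.33, and no longer overlapped. The difference was 0.91 ± 0.18 (SE, n = 2 against 2, limma adjusted p = 0.0187), a 1.87-fold rise, but it was -0.019 with no scaling and -1.30 on the spike-in scale.

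Tcf7l2, which encodes TCF4, the main TCF of intestinal epithelium, gave signals of 266 and 407 in stem cells against 427 and 336 in non-stem cell epithelia with the HMG box probe printed above. Its log2 values were 2.97 and 3.06 against 2.34 and 2.24, with close replicates and no overlap. The difference was 0.72 ± 0.15 (SE, n = 2 against 2, limma adjusted p = 0.0207), a 1.65-fold rise, but it was -0.20 with no scaling and -1.48 on the spike-in scale. With normexp it was 0.28 and not past the threshold (adjusted p = 0.172). Another probe (chr19:55817272-55817331, mm9, plus strand) gave 1.14 and 1.04 against 0.48 and 0.43, a difference of 0.64 ± 0.15 (SE, limma adjusted p over all probes = 0.0337). Both measured probes thus gave the same direction and nearly the same size. The third, at chr19:56006638-56006697, was well above background on no array.

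Ctnnb1 encodes beta-catenin, the partner through which all 4 factors activate genes, and which is regulated mainly as a protein. Its probe (chr9:120869274-120869333, mm9, plus strand, averaged over 2 spots) gave signals of 468 and 697 in stem cells against 1094 and 861 in non-stem cell epithelia. Relative to the percentile its log2 values were 3.78 and 3.83 against 3.70 and 3.60, close together but without overlap. The difference of 0.16 ± 0.15 (SE, n = 2 against 2) did not pass the test (limma adjusted p = 0.45). Its 95% interval under the percentile shift, -0.22 to 0.54, leaves room for a modest change in either direction. On the spike-in scale the difference was -2.04, outside that interval.

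**Figure D2:**
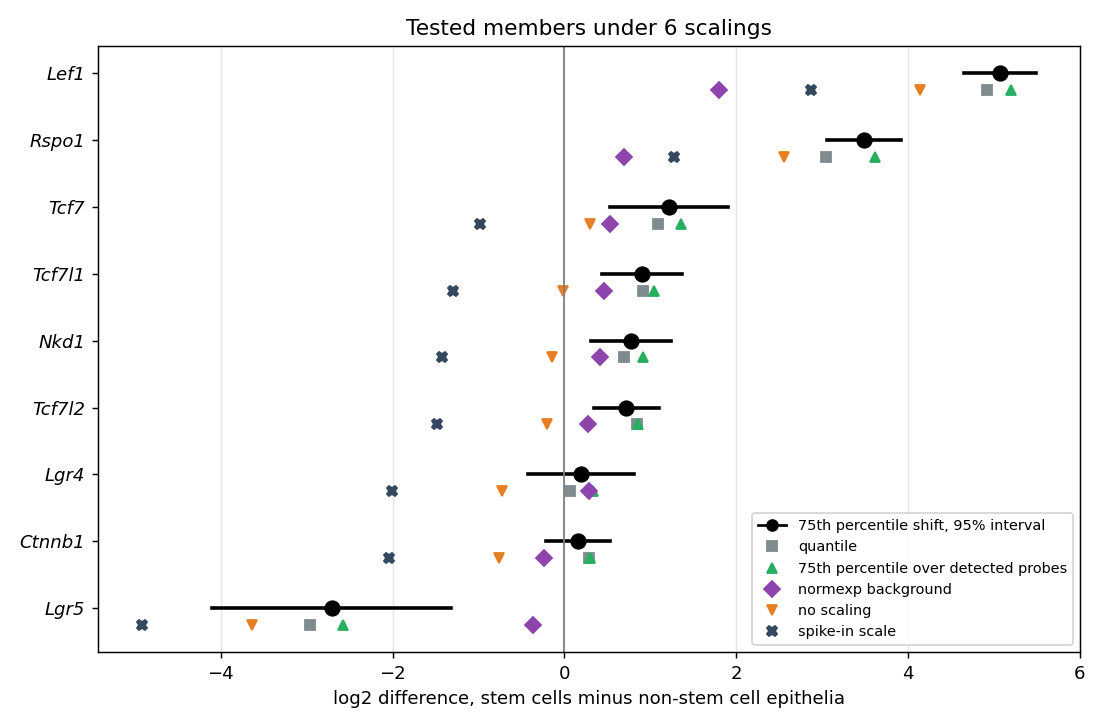
Log2 difference, stem cells minus non-stem cell epithelia (horizontal axis), of the 9 tested genes, as a black point with its 95% interval under the percentile shift and as smaller coloured marks under 5 other scalings. The fitted differences of Lef1 and Rspo1 lie to the right and that of Lgr5 to the left under every scaling run, each against a group at background, whereas Tcf7l1, Tcf7l2 and Nkd1 fall below 0 with no scaling and Tcf7 on the spike-in scale.

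Nkd1, a feedback inhibitor that binds Dishevelled, gave signals of 18.4 and 28.7 in stem cells against 31.4 and 20.6 in non-stem cell epithelia (chr8:91116160-91116219, mm9, plus strand). Its log2 values were -0.88 and -0.77 against -1.42 and -1.79, so the stem arrays lay above the others without overlap. The difference was 0.78 ± 0.19 (SE, n = 2 against 2, limma adjusted p = 0.0293), a 1.72-fold rise, but it was -0.14 with no scaling and -1.42 on the spike-in scale. Another Nkd1 probe was well above background on no array.

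Axin2, the scaffold of the destruction complex that is widely used as a readout of the pathway, gave no measurement. The coding probe printed above had signals of 2.77 and 5.31 in stem cells against 2.81 and 6.81 in non-stem cell epithelia. The other, at chr11:108812034-108812093 (mm9, plus strand) and with a GC content of 20%, had 2.30 and 2.25 against 2.72 and 2.41. Neither was well above background on any array, so no direction can be given for this gene.

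Tcf7, Tcf7l1, Tcf7l2 and Nkd1 were measured on all 4 arrays, and kept their sign with either non-stem array left out. With non-stem replicate 1 left out their log2 differences were 1.21, 0.82, 0.77 and 0.96, and with non-stem replicate 2 left out 1.23, 0.99, 0.67 and 0.60. None kept its call in these fits, which leave 1 array in the non-stem group and in which calls over all genes fell too. With no filter on dim probes their limma adjusted p-values were 0.108, 0.108, 0.12 and 0.12. The 30668 probes that were above background on no array had a median log2 difference of 0.76 after the percentile shift (quartiles 0.52 to 0.85) and -0.16 without it. That value is close to those of Tcf7l1, Tcf7l2 and Nkd1, and its part in their rises was not tested.

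Rspo1 encodes a secreted R-spondin, the ligand side of the axis. Its probe (chr4:124686270-124686329, mm9, plus strand) gave signals of 14.1 and 16.6 in stem cells against 2.75 and 2.46 in non-stem cell epithelia, where it was not well above background. The log2 values were -1.27 and -1.56 against -4.94 and -4.85, with close replicates in both groups. The log2 difference was 3.48 ± 0.17 (SE, n = 2 against 2, limma adjusted p = 0.000326), and stem cells had at least 2.41-fold more Rspo1 signal. With no scaling the bound was 1.27, with normexp 1.42, and on the spike-in scale no fold above 1 could be given, so the direction is not bounded there. The stem signals themselves were dim, so the bound is small beside the fitted difference.

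Stromal cells can also make R-spondins. Of 10 fibroblast markers, 6 were well above background on no array, among them the collagen gene Col1a1 and the growth factor receptors Pdgfra and Pdgfrb. The summed level of the 10 was 20.6 and 22.2 in stem cells against 8.31 and 8.94 in non-stem cell epithelia, and 2 of the 3 tested were higher in stem cells. They were Fbln1, a matrix glycoprotein, at least 5.98-fold higher, and Dcn, a matrix proteoglycan, higher by 2.15 ± 0.16 (SE, limma adjusted p = 0.000842) although at -0.056 on the spike-in scale. The remaining tested marker, Col1a2, did not pass and lay the other way (-0.49 ± 0.17, SE, limma adjusted p = 0.0787). Dcn was the brightest of the 10 in stem cells (mean log2 value 4.03, with Col1a2 next at 1.67), so it weighs most in their sum. The 12 endothelial markers summed to 31.5 and 31.0 against 23.4 and 25.0, and 4 of the 7 tested were higher in stem cells, 1 was lower and 2 did not pass, with a median log2 difference of 1.75. The 4 higher were Ly6c1, a surface antigen also found outside endothelium (3.46 ± 0.17), Robo4 (2.36 ± 0.20), Cldn5 (2.03 ± 0.50) and Egfl7 (1.75 ± 0.27). Robo4 and Cldn5 were above background on both stem arrays and on 1 non-stem array. Vwf, a clotting factor carrier, was at -2.85 ± 0.28. The adhesion molecule Pecam1 (-0.50 ± 0.40, SE, limma adjusted p = 0.38) and Kdr (0.40 ± 0.18, SE, limma adjusted p = 0.143) did not pass. Cdh5 and Tie1 were among the 4 markers above background on no array. The 7 nerve and Schwann cell markers reported summed to 12.9 and 11.8 against 21.0 and 23.7. The part of such cells in the Rspo1 signal was not tested.

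Lgr5, the R-spondin receptor that marks cycling stem cells of the intestine, moved the other way. Its probe (chr10:114887403-114887462, mm9, minus strand) gave signals of 5.32 and 2.25 in stem cells, not well above background, and 44.6 and 41.2 in non-stem cell epithelia. The log2 values were -2.68 and -4.44 against -0.92 and -0.79, so the stem arrays were low and far apart while the non-stem arrays were close. The log2 difference was -2.71 ± 0.55 (SE, n = 2 against 2, limma adjusted p = 0.019). Under the floor described for Lef1, which is not a detection limit, Lgr5 was at least 3.05-fold lower in stem cells. The bound was 4.76 without stem replicate 1 and 1.95 without stem replicate 2, 5.79 with no scaling, 14.0 on the spike-in scale and 1.19 with normexp. Lgr5 lay below 0 under every setting run but lost its call with normexp (-0.36, adjusted p = 0.0816), with no filter (adjusted p = 0.08), without non-stem replicate 1 (adjusted p = 0.116) and without non-stem replicate 2 (adjusted p = 0.144).

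Lgr4, the more broadly expressed receptor of the pair, gave signals of 12.7 and 19.1 in stem cells against 22.4 and 29.7 in non-stem cell epithelia (chr2:109853567-109853626, mm9, plus strand). Its log2 values were -1.42 and -1.36 against -1.91 and -1.26, so the groups overlapped. The difference of 0.20 ± 0.25 (SE, n = 2 against 2, 95% interval -0.42 to 0.81) did not pass the test (limma adjusted p = 0.569). On the spike-in scale it was -2.01, outside that interval. Lgr6 was above background on 1 stem array alone, and Rspo2, Rspo3 and Rspo4 on none. Of the 6 other R-spondin axis genes the 2 tested were the ubiquitin ligases, Rnf43 (0.34 ± 0.18, SE, adjusted p = 0.2) and Znrf3 (-0.046 ± 0.25, SE, adjusted p = 0.9), and neither passed.

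Other genes of the pathway passed the test about as often as all genes did. Of 82 other Wnt genes in 6 lists, 59 were tested, 10 were higher in stem cells, 9 were lower and 40 did not pass, against 14.3% higher and 16.7% lower among all tested genes. Their median log2 difference was 0.18. Without non-stem replicate 1 or 2, the number past the threshold was 7 and 5 in place of 19. Of the genes named next, Fzd2, Fzd10, Sostdc1, Smoc2 and Cd44 passed without either, Fzd4 and Nkd2 did not without replicate 2, and the others did not without each. Among 14 tested receptors 2 were higher, the Frizzled receptors Fzd2 (1.29 ± 0.16) and Fzd10 (1.31 ± 0.15), and 4 were lower, among them Fzd4 (-1.79 ± 0.20) and Fzd9 (at least 3.16-fold lower). Fzd9 did not pass with normexp (adjusted p = 0.0628), and Fzd2 and Fzd10 did not pass with no scaling (adjusted p = 0.437 and 0.407) and lay below 0 on the spike-in scale.

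Of 6 tested secreted inhibitors and their receptors 3 were higher and 1 was lower. Sostdc1, a Wnt and BMP antagonist of tooth and hair, was higher by 3.15 ± 0.17 (SE, limma adjusted p = 0.000413), and Kremen2, a Dkk receptor, by 1.13 ± 0.26, although Kremen2 did not pass with no scaling (adjusted p = 0.661) and lay below 0 on the spike-in scale. Sfrp1, which sequesters Wnt ligands, was at least 1.95-fold lower and did not pass with normexp (adjusted p = 0.799). Of 13 destruction complex and Dishevelled genes, Csnk1e, a casein kinase, passed as higher (0.72 ± 0.17) and none as lower, and it lay below 0 with no scaling and did not pass with normexp (adjusted p = 0.186).

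Among 14 tested nuclear cofactors 2 were higher, the Groucho corepressor Tle3 (0.76 ± 0.18) and the acetyltransferase Crebbp (0.61 ± 0.15), both below 0 with no scaling and not past the threshold with normexp (adjusted p = 0.251 and 0.444). Crebbp also did not pass without stem replicate 1 (adjusted p = 0.096). The 2 lower were Ctnnbip1, which keeps beta-catenin from TCF factors (-0.79 ± 0.15), and Tle5, a shortened Groucho family member (-0.64 ± 0.17). Tle5 did not pass where detected probes set the percentile (adjusted p = 0.0961), with the mean of its probes (adjusted p = 0.19) or without stem replicate 2 (adjusted p = 0.0761). Of 10 tested further feedback and target genes 2 rose and 2 fell. Smoc2, a matricellular protein of the intestinal stem cell signature, was higher by 4.76 ± 0.17 (SE, limma adjusted p = 0.000206) and Nkd2, the paralog of Nkd1, by 1.04 ± 0.17, although Nkd2 did not pass with no scaling (adjusted p = 0.806) and lay below 0 on the spike-in scale. The hyaluronan receptor Cd44 was lower by a log2 difference of -2.27 ± 0.18, and the TNF receptor family member Tnfrsf19 by -1.21 ± 0.16.

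**Figure D3:**
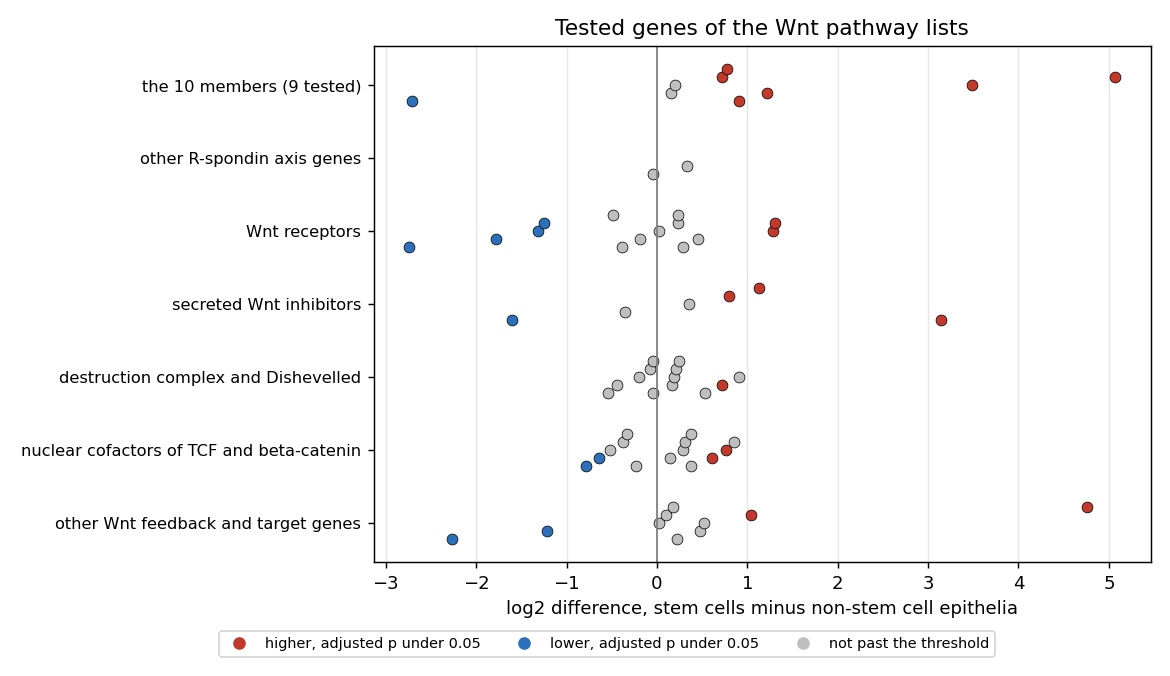
Log2 difference, stem cells minus non-stem cell epithelia (horizontal axis), of each tested gene of the 10 described here and of 6 lists of other Wnt genes (rows), coloured by call. Calls lie on both sides of 0 in most rows. The spike-in scale applies 1 shift to all genes, with a median move of -2.2, so every gene drawn between 0 and 2 falls below 0 there by construction.

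Genes of like pattern were sought without the genes described here and without names of RIKEN, model, transcript or accession type or all in capitals. Among the rest, likeness was the Euclidean distance over the 4 arrays between log2 values centred on each gene's mean. Those most like Lef1 were Rflna (0.204), Islr (0.248) and Clca3a2 (0.277). Each was above background on both stem arrays and on neither non-stem array. In the same search those most like Lgr5 were Ugt8a (0.254), Cfap20dc (0.376) and Tdh (0.429), and each was above background on both non-stem arrays alone.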

How the data were processed

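Total RNA was labelled with Cy3 and hybridised to 4 arrays, per the labels' protocols. The intensity of each spot in the deposited scanner files is linear and was background-subtracted by Agilent Feature Extraction 10.7.3.1 per the file headers; the submitters' processing notes name version 9.1. The log2 values in the deposited series table were made by the authors. Differences between its arrays correlated at 1 with differences from the scanner files, which settles direction but not scale. For scale, the Lef1 difference was 5.06 from the deposited values and 5.07 from the scanner files, and that of Lgr5 -2.71 from both. Each probe's baseline stays unknown. Its column medians were -0.28 and -0.55 for stem replicates 1 and 2 and -0.83 and -0.76 for non-stem replicates 1 and 2.

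From the scanner files, each array's 75th percentile over all non-control spots was subtracted from its log2 signals. A probe's spots were then averaged with outlier spots left out. Probes were tested if well above background on at least 2 of 4 arrays, and a gene took its brightest tested probe. Probes disagreed in sign for 1313 of the 3919 genes that had more than 1 tested. RefSeq (GRCm38.p6) named 26582 probes and 29099 kept the array's name. Groups were compared with limma 3.58.1 in R 4.3.3 (two-sided, 5.46 degrees of freedom). The number of arrays limits precision.

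The genes described, the pathway and marker lists and the tests were chosen with earlier results of these data known. Beyond the 10 genes, the text names up to 2 genes each way per Wnt list, by fitted size among those past the threshold, and 8 fixed markers plus up to 2 per marker list. Col1a2, Cdh5, Tie1, Pdgfra, Pdgfrb, Lgr6, Rspo2, Rspo3, Rspo4, Rnf43 and Znrf3 were added after their values were seen. So were Robo4, Cldn5, Egfl7, Kdr, Cd4, Trp63, Acta2, Myh11, Cnn1 and Tagln. 1 marker gene is not reported here. Probe positions are those of the array files (mm9). Alternatives were other scalings, background correction, filters, variances, probe summaries, the replicate block, the deposited values, leaving out each array, and a 2-fold minimum.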

Additional observations from a re-analysis of the deposited data

Results flagged for a closer look

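The spike-in control spots, which the comparison did not use, were higher on the stem arrays. Of 10 spike-ins 7 were neither among the dimmest nor the brightest, and after the percentile shift their median log2 difference, stem minus non-stem, was 2.26 (1.80 to 2.48), with all 7 higher on both stem arrays. Without the shift it was 1.33. The amount of spike-in added to each sample is not given in the sources used here. On a scale set by these spots the fitted differences of Lef1 and Rspo1 lay above 0, with no fold above 1 for Rspo1 as a bound, and those of the other 7 tested genes below it.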

How the results depend on the processing

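Of the 10 genes, the fitted differences of Lef1 and Rspo1 stayed above 0 and past the threshold in the 15 alternatives that gave them a value, though both are fitted against a group at background and Rspo1 has no fold above 1 on the spike-in scale; a filter on all 4 arrays left them and Lgr5 untested. As reported, 2488 genes were higher and 2903 lower, of the 10 genes 6 and 1, and 9 of their probes and 19 other Wnt genes passed. With normexp (offset 50), 4601 genes were lower, of the 10 genes 0, and Ctnnb1 was at -0.24, Cd3e at -0.11 and Pecam1 at 0.19. With no filter, 820 genes were higher and 741 lower, of the 10 genes 2 and 0, and 3 of their probes and 6 other Wnt genes passed. With a filter on all 4 arrays, 0 of the 10 genes were lower and 5 probes passed. With at least a 2-fold change, 1234 genes were higher and 1652 lower, and of the 10 genes 3 were higher and 5 probes passed. Leaving out each array gave 593 to 3013 genes higher, 743 to 3583 lower, 2 to 6 of the 10 genes higher, 0 to 1 lower, 2 to 9 probes and 5 to 23 other Wnt genes. The low ends of all of these came without a non-stem array, where the lone remaining one is assumed to vary like the stem arrays. Leaving out an array moved Cd3e between -0.065 and 0.35, Pecam1 between -1.12 and 0.12, and Lgr4 between -0.13 and 0.52; the sign turned without stem replicate 1, stem replicate 2 and non-stem replicate 1, in that order. The following scales and the crossed numbers below were chosen after seeing the data. On the spike-in scale, 140 genes were higher and 16628 lower, of the 10 genes 2 and 7, and 59 other Wnt genes passed. On that scale Tcf7 was at -0.99, Tcf7l1 at -1.30, Tcf7l2 at -1.48, Ctnnb1 at -2.04, Nkd1 at -1.42, Lgr4 at -2.01, Fzd2 at -0.92, Fzd10 at -0.90, Kremen2 at -1.07, Csnk1e at -1.49, Tle3 at -1.44, Crebbp at -1.60, Nkd2 at -1.16, Cd3e at -2.06, Lck at -1.13 and Dcn at -0.056. With no scaling, 432 genes were higher and 8901 lower, of the 10 genes 2 were higher, and 4 probes passed. There Tcf7l1 was at -0.019, Tcf7l2 at -0.20, Ctnnb1 at -0.76, Nkd1 at -0.14, Lgr4 at -0.73, Csnk1e at -0.21, Tle3 at -0.16, Crebbp at -0.32 and Cd3e at -0.78. Apart from the fewer genes or arrays these settings leave, and the shift a scale applies to every gene, the cause was not tested.

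The labels number replicates 1 and 2 in each group, but deviations of same-numbered arrays correlated at -0.10, and nothing says that a number marks a shared source. With the replicate number as a block, 2370 genes were higher and 2915 lower, and of the 10 genes 6 and 1; Tle5 (adjusted p = 0.0623) and Crebbp (adjusted p = 0.0638) lost their calls. With the numbers crossed, the block gave 2049 and 2367. Dim signal limits Tcf7, Nkd1, Lgr4, Rspo1, Lgr5 and Axin2.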

Other observations

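A further probe for the Lgr5 locus stands under the transcript name ENSMUST00000105272 (chr10:114900686-114900745, mm9, minus strand) and so was not counted with Lgr5. Its signals were 2.56 and 2.42 in stem cells against 6.20 and 2.61 in non-stem cell epithelia, well above background on no array. The fall of Lgr5 thus rests on 1 probe.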
